A study of Saccharomyces cerevisiae with 18 samples.

Results

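The mitochondrial genome of Saccharomyces cerevisiae (budding yeast) carries 8 genes for major proteins, and their RNA was followed here in strains deleted for factors of nonsense-mediated mRNA decay. The genes were taken by identifier from both deposited count tables: COX1 (Q0045), COX2 (Q0250), COX3 (Q0275), COB (Q0105), ATP6 (Q0085), ATP8 (Q0080), OLI1 (Q0130) and VAR1 (Q0140). They are 8 of the 66 features of the mitochondrial genome in the tables, which hold 12289 features in all. Total RNA from exponentially growing cells was sequenced in 18 libraries, 3 for each of 6 groups. The upf1 deletion (mat a, BY4741 background) was set against BY4741 wild type (mat a) of the same series of 6 libraries. A second series of 12 libraries, made by another experimenter, held the nmd4 deletion and the ebs1 deletion (both mat a, BY4741 background), libraries labelled as a combined nmd4 ebs1 deletion (mat alpha, BY4742 background) and BY4741 wild type (mat a). The 3 mutants of the second series share 1 set of 3 wild-type libraries. Cells of every group grew in YPD, a glucose medium, at 30 °C to an optical density of 0.6. RNA was taken up in hot acid phenol, treated with DNase, depleted of rRNA with Ribo-Zero and put into stranded libraries, and the labels name no selection for poly(A) tails. The labels say that libraries with the same number were handled in parallel, but not whether the numbers are separate cultures or colonies, so the spread behind each p-value is that between libraries and may be technical.

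Mitochondrial DNA is transcribed by its own polymerase, RPO41 with the factor MTF1, and its mRNAs are translated inside the organelle by mitochondrial ribosomes. Yeast mitochondrial mRNAs carry no poly(A) tail; most end at a short conserved run of letters, the dodecamer, where the primary transcript is cut. Nonsense-mediated decay, in which UPF1 is the central helicase, acts on mRNAs translated by cytoplasmic ribosomes, so the mitochondrial mRNAs are not among its direct substrates, whereas the nuclear genes that serve them can be. NMD4 and EBS1 are yeast proteins that bind or act with UPF1. COX1, COX2 and COX3 encode the catalytic core of cytochrome c oxidase (complex IV), COB encodes cytochrome b of complex III, ATP6, ATP8 and OLI1 encode membrane subunits of the ATP synthase, and VAR1 encodes a protein of the mitochondrial ribosome.

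The dodecamer is shown first because it defines the end of these mRNAs and decides whether the counted stretch reaches it. The longest run of letters shared after the stop codon by at least 5 of the 8 genes, on the R64 sequence of RefSeq, was the 13-letter run TAATAATATTCTT, which includes the dodecamer. It lay within 150 bases after the stop codon of 5 of the 8 genes. The same run occurred in 1 of 6008 windows of the same length after nuclear coding sequences (0.0166%), which were not matched for base composition. Because the run was chosen from the 8 genes themselves, its count among them is no test of enrichment. Over the mitochondrial genome the run occurred 6 times on the + strand and 2 times on the - strand. The 5 sites follow, on the + strand, with the run in capitals.
COX1, chrMT:26761-26789: taatataaTAATAATATTCTTataaaaat
COX2, chrMT:74567-74595: aataattaTAATAATATTCTTaaatataa
COX3, chrMT:80114-80142: tattattaTAATAATATTCTTacaaatat
COB, chrMT:43736-43764: taatacttTAATAATATTCTTaaaaataa
ATP6, chrMT:29344-29372: ccccctttTAATAATATTCTTttatctaa

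The run began 68 bases after the stop codon in COX1, 62 in COX2, 86 in ATP6, 97 in COB and 100 in COX3. The features of the count tables run from 50 bases before the coding sequence to 100 bases after it, so they take in the whole run in COX1, COX2 and ATP6 and end inside it in COB and COX3. For ATP8, OLI1 and VAR1 these letters are not in the window searched. The starts of transcription units were searched with ATATAAGTA, the 9-letter consensus of mitochondrial promoters, on both strands of the 2000 bases before each coding sequence. It was found before 3 of the 8 genes, and in 264 of 5998 nuclear windows of that length (4.40%), which were not matched for base composition. Over the mitochondrial genome it occurred 11 times on the + strand and 3 times on the - strand. The 4 matches before these genes, all on the + strand, are shown with the 9 letters in capitals. Whether they start transcription, or whether genes without a match lack a start, was not tested.
COX1, chrMT:13341-13365: aagtattgATATAAGTAatagatat
COB, chrMT:34870-34894: gaaatattATATAAGTAatatataa
OLI1, first match, chrMT:46063-46087: taatattaATATAAGTAatatatat
OLI1, second match, chrMT:46141-46165: acacatttATATAAGTAtatatata

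The match before COX1 began 469 bases ahead of its coding sequence, that before COB 1662 bases, and those before OLI1 652 and 574 bases. All 8 genes are on the + strand. COX1 covers bases 13768 to 26801 as 8 exons of 1755 bases in all, and its introns hold 6 reading frames, AI1 to AI5_BETA. These 6 frames are features of their own, but they overlap the counted exons of COX1, so some reads can count in both. ATP8 (27616 to 27912, 297 bases) and ATP6 (28437 to 29366) follow COX1, and the order COX1, ATP8, ATP6 is known as a single transcription unit. COB covers 36490 to 43747 as 6 exons of 1308 bases, with the reading frames BI2 to BI4 in its introns, which overlap its counted exons likewise. OLI1 (46673 to 47053, 381 bases) is followed by VAR1 (48851 to 50197, 1347 bases) in another known unit. COX2 (73708 to 74613, overlapped by Q0255) and COX3 (79163 to 80122) have no introns.

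The genes were AT-rich, and unequally so. GC content of the counted features was 11.1% in ATP8 and 11.7% in VAR1, against 22.2% in ATP6, 22.3% in OLI1, 23.7% in COX2, 24.8% in COB, 26.1% in COX3 and 27.7% in COX1. The median of 5729 nuclear coding features was 38.5%, and 1 of them, SPG3 with 26.8%, lay below COX1. The first 147 coding bases are shown for 3 genes chosen by level, ATP8 and VAR1 as the least counted and OLI1 as the most counted per kilobase. Among the better counted genes, GC content of the counted features did not order the level. OLI1, with 22.3%, lay near ATP6 with 22.2% and below COX2, COB, COX3 and COX1, and all of these had lower mean levels per kilobase. The counted features also hold bases before and after the coding sequence. GC content of the coding sequence alone was highest in OLI1, with 33.3%. It was 30.0% in COX3, 29.9% in COX1, 27.7% in COB, 26.7% in COX2 and 23.7% in ATP6. ATP8 and VAR1 had 19.0% and 10.4%. How far base composition goes with the level was not tested. G and C are in capitals.
ATP8, chrMT:27666-27812: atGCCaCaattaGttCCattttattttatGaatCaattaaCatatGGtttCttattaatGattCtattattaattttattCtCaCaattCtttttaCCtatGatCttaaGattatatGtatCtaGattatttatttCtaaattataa
VAR1, chrMT:48901-49047: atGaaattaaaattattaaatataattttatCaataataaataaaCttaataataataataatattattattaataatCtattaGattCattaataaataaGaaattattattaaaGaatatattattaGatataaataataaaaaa
OLI1, chrMT:46723-46869: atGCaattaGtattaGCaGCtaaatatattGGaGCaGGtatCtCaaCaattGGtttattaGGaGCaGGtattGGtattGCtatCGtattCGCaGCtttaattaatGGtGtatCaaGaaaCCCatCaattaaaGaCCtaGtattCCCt

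Of these 147 bases, 28 were G or C in ATP8, 9 in VAR1 and 51 in OLI1.

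Total counts per library were 21636349 to 26880135 in the upf1 series and 14243384 to 31452109 in the second series, and mitochondrial features took 0.865% to 2.67% of them. Counts on the 8 genes summed to 25710 to 83018 per library. The deleted genes were checked in counts scaled to 1000000 per library (CPM, with TMM factors). NAM7, the name of UPF1 in the files, averaged 8.78 ± 0.370 CPM in the upf1 deletion and 250.7 ± 5.18 CPM in its wild type (SD, n = 3 each). NMD4 averaged 2.87 ± 0.853 CPM in the nmd4 deletion and 27.2 ± 4.36 CPM in wild type, and EBS1 averaged 3.67 ± 0.685 CPM in the ebs1 deletion and 142 ± 13.1 CPM in wild type. The libraries labelled nmd4 ebs1 deletion had EBS1 at 4.83 ± 1.05 CPM, but NMD4 at 73.6 ± 8.62 CPM, above wild type. They are therefore called the libraries labelled nmd4 ebs1 deletion throughout, and their genotype and their BY4742 parent cannot be told apart.

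Several libraries stood apart in the 8 genes together. Taken as the mean log2 deviation of the 8 genes from the mean of their series, replicate 2 of wild type in the second series was at 1.01 and replicate 3 at 0.47, whereas its replicate 1 was at -0.08. The ebs1 deletion had -0.47 and -0.84 in replicates 1 and 2 and 0.19 in replicate 3. Replicate 3 of the libraries labelled nmd4 ebs1 deletion was at 0.57, and replicate 3 of wild type in the upf1 series at 0.51. This mean gives ATP8 and VAR1, with few counts, the same weight as the other genes. In replicate 3 of the libraries labelled nmd4 ebs1 deletion they had 13 and 222 counts, against 1 and 51 in second-series wild-type replicate 3. COX1 was lower there, at 826 against 1536 CPM, and the summed share of the 8 genes was 0.212% against 0.279%. In bulk RNA, fewer mitochondria per cell and less RNA per mitochondrion cannot be told apart.

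The 8 genes took a small share of the counts in all groups. Their summed share of all counts was 0.181%, 0.173% and 0.186% in the upf1 deletion, against 0.157%, 0.176% and 0.227% in its wild type. The means were 0.180% ± 0.00625 and 0.187% ± 0.0359 (SD, n = 3 each), and the ranges overlapped. In the second series the share was 0.146%, 0.132% and 0.152% in the nmd4 deletion, 0.126%, 0.0983% and 0.207% in the ebs1 deletion, 0.147%, 0.152% and 0.212% in the libraries labelled nmd4 ebs1 deletion, and 0.146%, 0.294% and 0.279% in wild type. Wild type of that series held the 2 highest values of the 12 libraries, and its replicate 1 lay among the mutants.

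COX1 alone held 40.3% to 51.0% of the counts on the 8 genes, and OLI1 11.7% to 21.8%. COB held 8.20% to 15.4%, COX3 7.57% to 12.1%, COX2 7.36% to 12.2% and ATP6 2.77% to 9.16%. VAR1 took 0.0614% to 0.333%, which was 25 to 222 counts per library, and ATP8 at most 0.0971%, which was 1 to 41 counts. ATP8 lies between COX1 and ATP6 in the same unit, and ATP6 had at least 885 counts in every library. The 2 genes with the lowest GC content were thus the 2 least counted; the part of base composition in their level was not tested.

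Per kilobase of counted feature, OLI1 ranked highest and COX1 next in each of the 6 groups. OLI1 stood at 895 ± 61.9 CPM per kilobase in the upf1 deletion and 1084 ± 135 in its wild type, and COX1 at 450.2 ± 19.0 and 546 ± 87.3 (SD, n = 3 each). The libraries of OLI1 and COX1 did not overlap in 4 of the 6 groups, and overlapped in the ebs1 deletion and in wild type of the second series. In the upf1 series the order continued with COX3, COX2, COB and ATP6, at 176, 153, 108 and 60.1 CPM per kilobase in the upf1 deletion and 236, 184, 155 and 91.8 in wild type. In the second series it continued with COX2, COB, COX3 and ATP6 in all 4 groups, and each of these overlapped its neighbour in the order. ATP8 and VAR1 were last in every group. ATP8 averaged 2.30 CPM per kilobase in the upf1 deletion and 3.47 in its wild type, but between 0.326 and 0.846 in the groups of the second series, where it fell behind VAR1. Series and experimenter cannot be told apart in that difference.

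**Figure D1:**
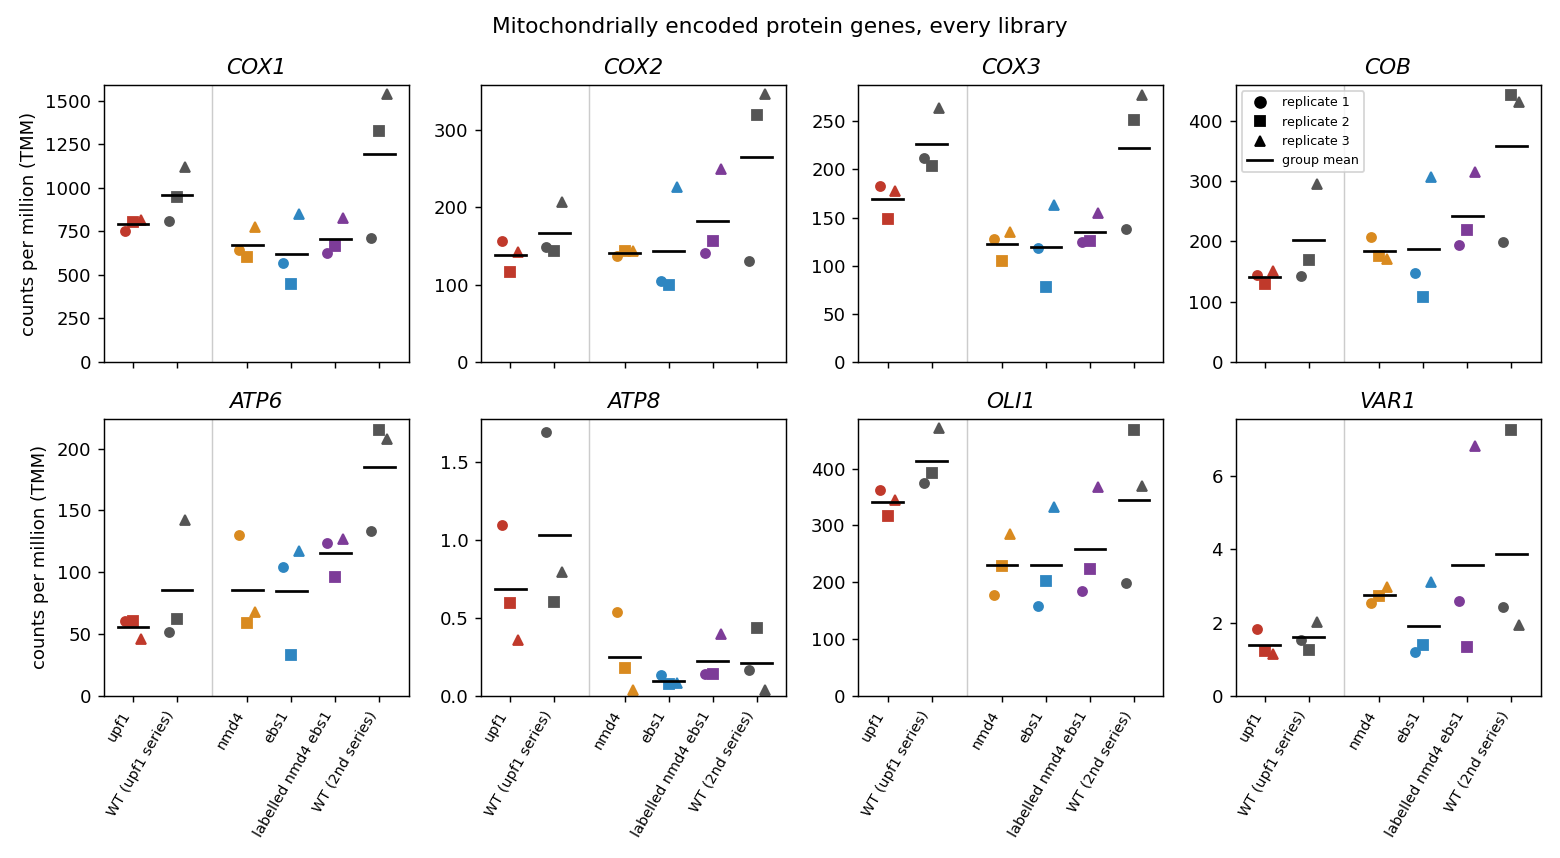
Level of each of the 8 genes in every library, in TMM-scaled CPM (vertical axes, one panel per gene), by group; marker shape gives the replicate number and the bar the group mean. In the second series the wild-type libraries of replicates 2 and 3 sit highest for COX1, at 1327 and 1536 CPM, while replicate 1, at 712 CPM, lies among the mutants.

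In the upf1 deletion the number of mitochondrial mRNAs called lower was 4, 1 or 0 of 8, depending on how libraries were scaled. In edgeR's quasi-likelihood test, COX1, COX3, COB and OLI1 were called lower, 4 of 8, where 31.8% of all 9700 features tested were called lower and 37.0% higher. All 8 log2 fold changes were negative, with a median of -0.35, beside a median of 0.02 over all features and -0.13 over nuclear coding features. With TMM factors computed on nuclear coding features alone, which moved the median of those features to -0.00, 1 of the 8 genes, COX3, was called, and 21.0% of all features were called lower and 42.6% higher. With library totals and no TMM factors, which moved that median to 0.14, none was called, and 9.6% of all features were called lower and 51.5% higher. Of all calls, 53.8% were higher with TMM, 67.0% with nuclear TMM and 84.3% without TMM.

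COX3, the subunit of complex IV that completes its membrane core, had 182, 148 and 177 CPM in the upf1 deletion, against 212, 203 and 264 CPM in wild type. Every mutant library lay below every wild-type library. Its log2 fold change was -0.42 ± 0.10 (SE), with an adjusted p of 0.00424 in edgeR's quasi-likelihood test, and it was -0.29 with nuclear TMM (adjusted p = 0.0406) and -0.14 without TMM (adjusted p = 0.247).

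COX1, which carries the oxygen-reducing haem and copper centre, had 752, 805 and 814 CPM in the upf1 deletion, against 812, 946 and 1117 CPM in wild type. The highest mutant library and the lowest wild-type library lay within a few CPM of each other, with a slight overlap. The log2 fold change was -0.28 ± 0.10 (edgeR, adjusted p = 0.0242), -0.15 with nuclear TMM (adjusted p = 0.199) and -0.00 without TMM (adjusted p = 0.978).

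COX2, which takes electrons from cytochrome c, had 157, 116 and 142 CPM in the upf1 deletion, against 148, 144 and 207 CPM in wild type. The groups overlapped. Its log2 fold change of -0.27 ± 0.14 was not called (edgeR, adjusted p = 0.104), but was with the replicate number as a block (adjusted p = 0.0284); without TMM it turned to 0.0061.

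COB had 144, 130.1 and 150.4 CPM in the upf1 deletion, against 143, 169 and 296 CPM in wild type. Wild-type replicate 3 stood well above all others. The log2 fold change of -0.52 ± 0.21 was called in edgeR (adjusted p = 0.0426), not in DESeq2 (adjusted p = 0.138) and not with nuclear TMM (-0.39, adjusted p = 0.130). Without wild-type replicate 3 it was -0.15 (edgeR, adjusted p = 0.176).

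Among the ATP synthase genes, OLI1, which encodes the subunit of the rotating ring, had 362.5, 316 and 345 CPM in the upf1 deletion, against 375, 393 and 472 CPM in wild type. The groups did not overlap. The log2 fold change was -0.28 ± 0.09 (edgeR, adjusted p = 0.0159), -0.14 with nuclear TMM (adjusted p = 0.187) and -0.00 without TMM (adjusted p = 0.984). COX3 and OLI1 were the 2 of 8 genes with every mutant library below every wild-type library, which held for 33.3% of all features tested.

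ATP6, which forms the proton path beside the ring, had 60.6, 60.7 and 46.4 CPM in the upf1 deletion, against 51.8, 62.3 and 142 CPM in wild type. Wild-type replicate 3 again stood alone, and the other libraries overlapped. The log2 fold change was -0.61 ± 0.30 and was not called (edgeR, adjusted p = 0.0859), and without wild-type replicate 3 it was -0.034 (adjusted p = 0.824). ATP8, a small subunit that helps assemble the membrane part, had 26, 17 and 9 counts in the upf1 deletion, against 41, 12 and 19 in wild type. Its log2 fold change of -0.64 ± 0.44 was not called (edgeR, adjusted p = 0.216). VAR1 had 43, 35 and 29 counts in the upf1 deletion, against 37, 25 and 48 in wild type, with a log2 fold change of -0.22 ± 0.25 (edgeR, adjusted p = 0.446) that turned to 0.058 without TMM. For these 2 genes counting error limits what could be detected.

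Leaving out wild-type replicate 3 left COX3 as the 1 called gene, with COX1 at -0.16 (edgeR, adjusted p = 0.101) and OLI1 at -0.18 (0.0754); leaving out wild-type replicate 1 or 2 added ATP6 to the 4 called, and leaving out a mutant replicate left 2, 2 or 3 called, COX3 in each case. The parallel numbers showed the same unevenness. Within number 1, 4 of the 8 genes were lower in the upf1 deletion, with a median log2 ratio of -0.02, within number 2 all 8 were lower (-0.27), and within number 3 all 8 (-0.69). COX1, COX3, ATP8 and OLI1 were lower within all 3 numbers, by log2 ratios of -0.21, -0.45 and -0.58 for COX3 and -0.11, -0.23 and -0.46 for COX1.

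**Figure D2:**
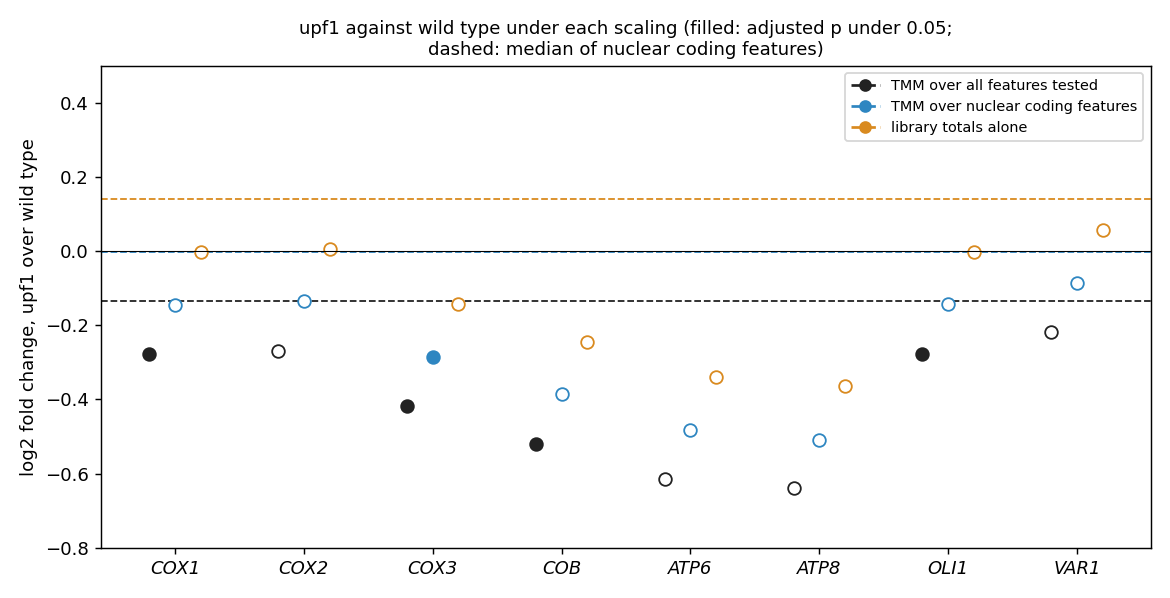
Log2 fold change of each of the 8 genes in the upf1 deletion over wild type (vertical axis), under TMM on all features, TMM on nuclear coding features and library totals; filled points were called, and dashed lines mark the median of nuclear coding features under each scaling. A change of scaling shifts every gene by nearly the same amount, so the kept order is no result about these genes. COX1 and OLI1 reach -0.00 with library totals.

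In each mutant of the second series the 7 mitochondrial mRNAs tested had negative log2 fold changes. No gene was called in edgeR without the replicate number as a block. ATP8 did not pass the filter on low counts there and was not tested; it averaged 0.251 CPM in the nmd4 deletion, 0.0968 CPM in the ebs1 deletion and 0.226 CPM in the libraries labelled nmd4 ebs1 deletion, against 0.214 CPM in wild type. In the nmd4 deletion 0 of 7 were called by edgeR and 0 by DESeq2. Of 10148 features, 0.0493% were called by edgeR, and 0.295% of those with an adjusted p by DESeq2. Under an unadjusted p of 0.05 in edgeR were 5 of the 7 genes and 516 of the 10148 features. The 7 log2 fold changes ran from -1.12 to -0.44 with a median of -0.86 (all features -0.00), and adjusted p in edgeR from 0.859 to 0.999. In the ebs1 deletion 0 of 7 were called by edgeR and 2, COX1 and COX3, by DESeq2. Of all features, 0.365% were called by edgeR, and 3.46% of those with an adjusted p by DESeq2. Here 5 of the 7 genes and 1287 of the 10148 features were under an unadjusted p of 0.05 in edgeR. The 7 log2 fold changes ran from -1.13 to -0.58 with a median of -0.94 (all features 0.00), and adjusted p in edgeR from 0.175 to 0.565. In the libraries labelled nmd4 ebs1 deletion 0 of 7 were called by either tool. Of all features, 2.39% were called by edgeR, and 4.48% of those with an adjusted p by DESeq2. Here 2 of the 7 genes and 1510 of the 10148 features were under an unadjusted p of 0.05 in edgeR. The 7 log2 fold changes ran from -0.76 to -0.03 with a median of -0.56 (all features -0.01). VAR1, the smallest, turned to 0.023 with nuclear TMM and 0.099 without TMM. With the replicate number as a block, edgeR called 0, 2 and 1 of the 7 genes lower for nmd4, ebs1 and the labelled nmd4 ebs1 deletion, and 10, 571 and 893 features in all, which was 0.0985%, 5.63% and 8.8% of those tested.

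COX1 had 640, 602 and 774 CPM in the nmd4 deletion, 568, 448 and 850.4 CPM in the ebs1 deletion and 625, 663 and 826 CPM in the libraries labelled nmd4 ebs1 deletion, against 712, 1327 and 1536 CPM in wild type. Wild-type replicates 2 and 3 exceeded all 9 mutant libraries, while wild-type replicate 1 lay below 3 of them. The log2 fold changes were -0.83 ± 0.28, -0.94 ± 0.28 and -0.76 ± 0.28 in that order of mutants (edgeR, adjusted p = 0.885, 0.175 and 0.221). With the replicate number as a block, COX1 was called in the ebs1 deletion (adjusted p = 0.0262) and in the libraries labelled nmd4 ebs1 deletion (0.0403), and not in the nmd4 deletion (0.268).

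COX3 had 127.5, 105.2 and 135 CPM in the nmd4 deletion, 119, 77.5 and 163 CPM in the ebs1 deletion and 125, 126 and 155 CPM in the libraries labelled nmd4 ebs1 deletion, against 138, 252 and 278 CPM in wild type. All 3 nmd4 libraries lay below all wild-type libraries, and the other mutants overlapped wild type through their replicate 3. The log2 fold changes were -0.86, -0.89 and -0.72 in that order, and the block gave an adjusted p of 0.0408 in the ebs1 deletion.

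ATP6 had 130.2, 59.0 and 67.6 CPM in the nmd4 deletion, 104, 33.4 and 117 CPM in the ebs1 deletion and 123.4, 95.8 and 127 CPM in the libraries labelled nmd4 ebs1 deletion, against 134, 215 and 208 CPM in wild type. Every mutant library was below every wild-type library in all 3 comparisons, although replicate 1 of each mutant came close to replicate 1 of wild type. The log2 fold changes were -1.12 ± 0.41, -1.13 ± 0.41 and -0.69 ± 0.41 (edgeR, adjusted p = 0.927, 0.290 and 0.473). Genes with every mutant library below every wild-type library numbered 2 of 7 in the nmd4 deletion, COX3 and ATP6, where 3.18% of all features did so. ATP6 was the 1 such gene in the ebs1 deletion, where 5.94% did, and the 1 in the libraries labelled nmd4 ebs1 deletion, where 7.35% did.

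COB had 207, 176 and 170.3 CPM in the nmd4 deletion, 148, 107 and 306 CPM in the ebs1 deletion and 194, 219 and 316 CPM in the libraries labelled nmd4 ebs1 deletion, against 199, 443 and 431 CPM in wild type. COX2 had 137, 143 and 143 CPM in the nmd4 deletion, 104.7, 99.1 and 226 CPM in the ebs1 deletion and 140.4, 156 and 250.1 CPM in the libraries labelled nmd4 ebs1 deletion, against 130.2, 319 and 346 CPM in wild type. OLI1 had 177, 228 and 285 CPM in the nmd4 deletion, 158.4, 202 and 332 CPM in the ebs1 deletion and 186, 223 and 367 CPM in the libraries labelled nmd4 ebs1 deletion, against 198, 468 and 369.5 CPM in wild type. For these 3 genes wild-type replicate 1 fell among the mutant libraries and wild-type replicates 2 and 3 lay above them all. VAR1 ranged from 27 to 77 counts in the nmd4 and ebs1 deletions and from 29 to 222 counts in the libraries labelled nmd4 ebs1 deletion, against 43 to 100 counts in wild type, and ATP8 had at most 13 counts in any library of the second series.

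Set by set of libraries handled in parallel, the lowering was larger within numbers 2 and 3 than within number 1. Within number 1, the median log2 ratio over the 8 genes stood at 0.01 for the nmd4 deletion, -0.34 for the ebs1 deletion and -0.11 for the libraries labelled nmd4 ebs1 deletion. Within number 2 it was -1.28, -1.87 and -1.05 in the same order, and within number 3 it was -1.01, -0.55 and -0.46. COX1, COX3, ATP6 and OLI1 were lower within all 3 numbers in each of the 3 mutants, and number 1 gave COX1 log2 ratios of -0.15, -0.33 and -0.19.

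Base composition moved with some of these libraries. Levels of the 288 nuclear coding features of lowest GC content were set against those of the 287 of highest. The first minus the second, as a mean log2 deviation within the series, was 0.57 in wild-type replicate 2, where the 8 genes' mean deviation was highest. It was also raised in replicate 2 of the nmd4 deletion (0.34), the ebs1 deletion (0.21) and the libraries labelled nmd4 ebs1 deletion (0.18), where the 8 genes stood at -0.28, -0.84 and -0.22. In wild-type replicate 3, the second library with high mitochondrial mRNAs, it was -0.11. COX1, COX2 and COX3 were higher in that library than in wild-type replicate 2, at 1536, 346 and 278 against 1327, 319 and 252 CPM. COB, ATP6, ATP8, OLI1 and VAR1 were higher in wild-type replicate 2. The part of base composition in the differences was not tested. Without wild-type replicate 2, the COX1 log2 fold changes were still negative, and over all libraries left out in turn they ran from -1.09 to -0.59 in the nmd4 deletion, from -1.23 to -0.70 in the ebs1 deletion and from -1.02 to -0.52 in the libraries labelled nmd4 ebs1 deletion. Without wild-type replicate 1, COX1 was called in the libraries labelled nmd4 ebs1 deletion (edgeR, adjusted p = 0.0490).

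**Figure D3:**
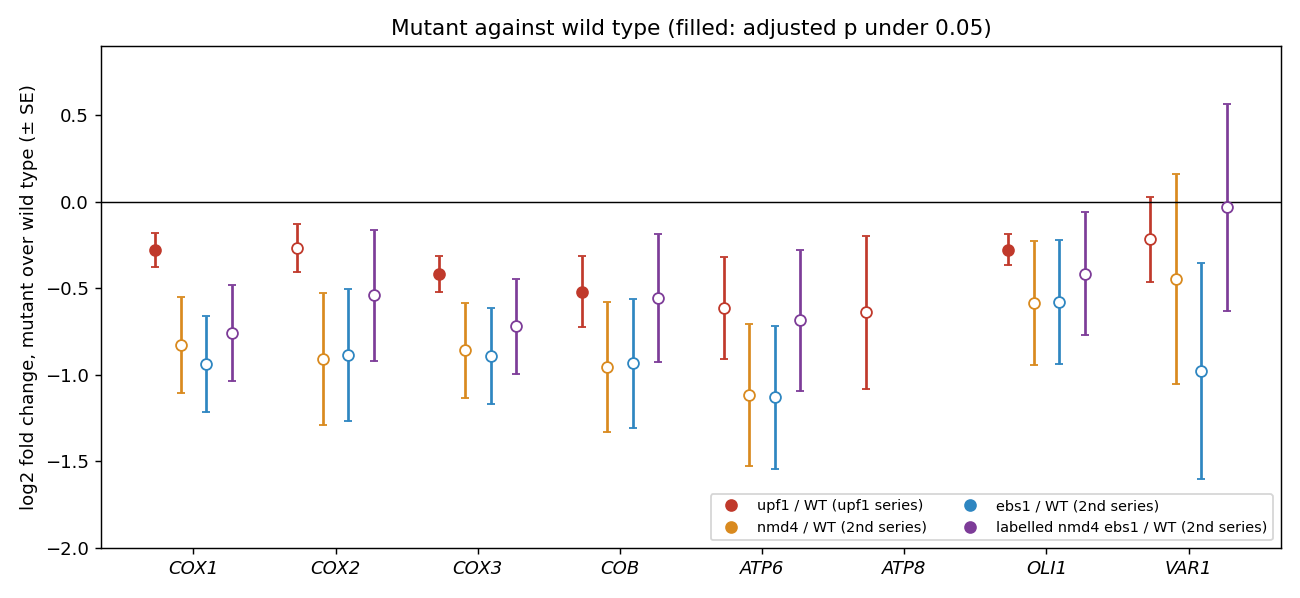
Log2 fold change (vertical axis, ± SE) of each of the 8 genes in the 4 mutants over their own wild type (ATP8 was tested in the upf1 series alone); filled points passed an adjusted p of 0.05 in edgeR. The second-series points reach -1.13 but with wide errors, and the filled points are the 4 genes called in the upf1 deletion.

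The mutants were also set against each other. The libraries labelled nmd4 ebs1 deletion over the nmd4 deletion gave log2 fold changes of 0.07 to 0.43 in the 7 genes tested, and none was called, where 0.552% of all features were. Over the ebs1 deletion they gave 0.16 to 0.95, and none was called, where 0.414% of all features were. The ebs1 deletion over the nmd4 deletion gave -0.54 to 0.02, and none was called, where 0.0197% of all features were. In none of these 3 comparisons was a gene under an unadjusted p of 0.05 in edgeR. Of the 10148 features, 661, 183 and 434 were, in that order. DESeq2 called none of the genes. Standard errors of these log2 fold changes were 0.27 to 0.62.

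The difference between the upf1 effect and the effects of the other mutants was tested itself and called no gene. In a fit of all 18 libraries, the upf1 effect minus the nmd4 effect ran from -0.99 in ATP8 to 0.64 in COX2, with 0 of 8 genes called where 26.2% of 10381 features were. Minus the ebs1 effect it ran from 0.22 to 0.75, with 0 of 8 called where 19.8% were, and minus the effect in the libraries labelled nmd4 ebs1 deletion from -1.09 to 0.45, with 0 of 8 called where 18.8% were. No gene was under an unadjusted p of 0.05 in edgeR, the 1 tool run on these differences. Of the 10381 features, 3999, 3349 and 3290 were, in the same order. COX1 came closest, at 0.64 ± 0.33 against the ebs1 effect (edgeR, adjusted p = 0.199). The comparisons within the second series share their wild-type libraries, so the 3 differences are not independent.

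COX1 and COB are the 2 of the 8 genes with introns, and the tables count introns apart from exons. Intron density, as a percent of exon density in the same library, was 34.5%, 31.8% and 30.6% for COX1 in the upf1 deletion, against 39.0%, 31.7% and 33.6% in wild type. The groups overlapped. For COB it was 2.51%, 3.35% and 2.65% in the upf1 deletion, against 3.21%, 2.84% and 4.49% in wild type, and these overlapped too. Tested as features, the COX1 introns fell by 0.37 ± 0.08 on the log2 scale in the upf1 deletion (edgeR, adjusted p = 0.00114) and the COB introns by 0.93 ± 0.33 (edgeR, adjusted p = 0.0281). Wild-type replicate 3 stood apart for the COB introns, with 16.4, 19.8 and 18.1 CPM in the upf1 deletion, against 20.9, 21.9 and 60.4 CPM in wild type. Without that library the COB intron change was -0.24 (edgeR, adjusted p = 0.0490), and without upf1 replicate 1 or 3 the call was lost (adjusted p = 0.0784 and 0.0567). The COB intron call was also lost with nuclear TMM (adjusted p = 0.0595) and in DESeq2 (0.0870), and without TMM both calls were lost (0.270 and 0.0997).

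In the second series, COX1 intron density was 38.9% to 48.9% in the nmd4 deletion, 41.7% to 42.8% in the ebs1 deletion and 38.5% to 49.1% in the libraries labelled nmd4 ebs1 deletion, against 27.5% to 48.4% in wild type. COB intron density was 14.9%, 4.70% and 4.18% in the nmd4 deletion, 11.1%, 4.71% and 5.21% in the ebs1 deletion and 15.5%, 5.14% and 6.40% in the libraries labelled nmd4 ebs1 deletion, against 12.3%, 9.32% and 3.76% in wild type. Replicate 1 held the highest value in each of the 4 groups, so the highest COB values went with the parallel number.

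**Figure D4:**
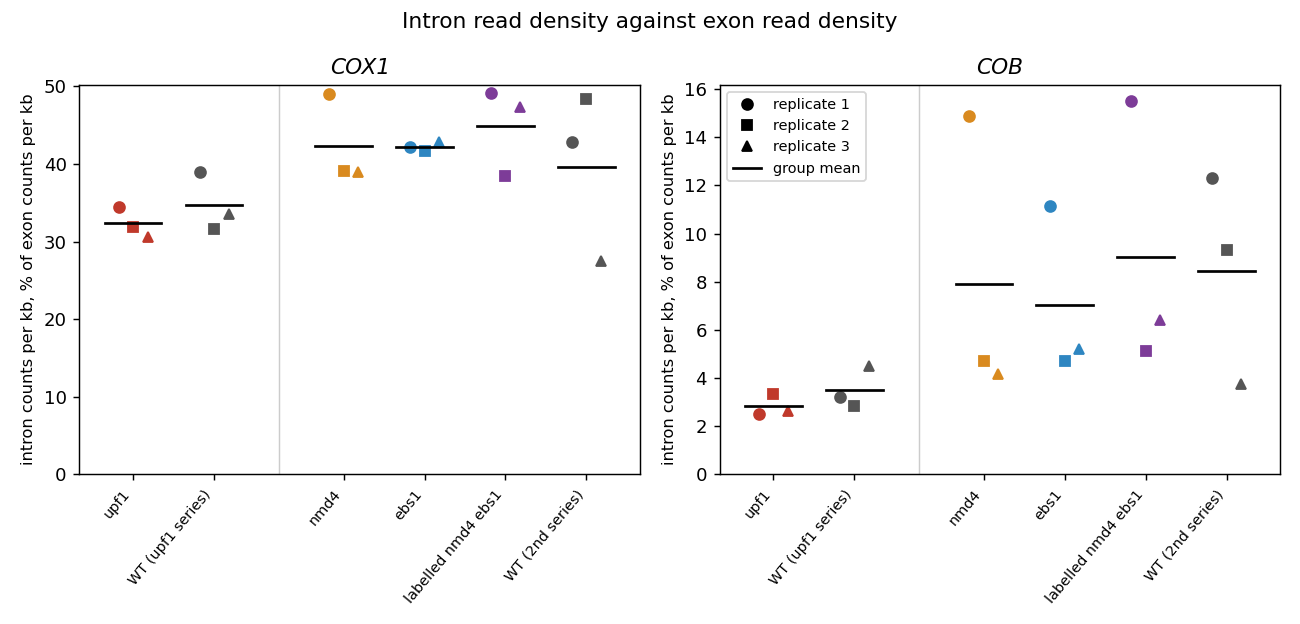
Counts per kilobase on introns as a percent of counts per kilobase on exons (vertical axes) for COX1 and COB in every library, by group, with marker shape for the replicate number and a bar for the group mean. Replicate 1 of each second-series group stands highest for COB, from 11.1% to 15.5%.

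Of the 58 other features of the mitochondrial genome, 27 passed the filter in the upf1 series, and 0 were called higher and 19 lower in edgeR with TMM, 10 lower with nuclear TMM and 2 lower without TMM. The shares of all features called lower were 31.8%, 21.0% and 9.6% under these scalings. Log2 fold changes were negative in 25 of the 27. Most overlap introns, so they share reads; of the 7 outside introns and intron reading frames, 2 were called lower and 5 were negative. The AI5_BETA intron, a part of the COX1 gene, fell by 0.86 ± 0.11 on the log2 scale (edgeR, adjusted p = 3.2e-05). SCEI, the reading frame of a homing endonuclease in an intron of the large ribosomal RNA gene, had 19.8 ± 0.923 CPM in the upf1 deletion and 31.4 ± 3.22 CPM in wild type and fell by 0.67 ± 0.08 (edgeR, adjusted p = 3.6e-05). The second series had 29 past the filter and none was called in the 3 mutants by edgeR without the replicate block. With the block, 6 were called lower in the ebs1 deletion, 3 of them outside introns and intron reading frames, with 0 for nmd4 and 1 in the libraries labelled nmd4 ebs1 deletion.

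Nuclear genes that make, translate and assemble with the 8 products were described by 12 lists holding 117 genes, all found in the tables. The counts below are given under TMM, nuclear TMM and library totals without TMM, since the split of rises and falls moved with the scaling as it did over all features. Over all features, 31.8% fell and 37.0% rose with TMM, 21.0% and 42.6% with nuclear TMM, and 9.6% and 51.5% without TMM, and a list with shares near these is no result about its genes. Of 13 nuclear ATP synthase subunits, 9 fell and 0 rose in the upf1 deletion with TMM (8 and 2 with nuclear TMM, 2 and 3 without TMM), with a median log2 fold change of -0.28. ATP1, the catalytic alpha subunit, had 604 ± 11.9 CPM in the upf1 deletion and 769 ± 29.3 CPM in wild type (SD, n = 3 each; edgeR, log2 fold change -0.35 ± 0.05, adjusted p = 0.000184). ATP5, a stalk subunit, fell by 0.43 ± 0.05 and ATP15, the epsilon subunit, by 0.45 ± 0.05, the second of which shares reads with MDL2. Of 9 complex IV subunits 5 fell and 0 rose with TMM (2 and 2 with nuclear TMM, 0 and 4 without TMM), with a median of -0.20, among them COX5B by 0.47 ± 0.09, an isoform of subunit 5, and COX6 by 0.37 ± 0.07, whose feature overlaps YHR050W-A. Of 9 complex III subunits 3 fell and 0 rose with TMM (2 and 2 with nuclear TMM, 0 and 2 without TMM), with a median of -0.12; 3 of 9 is near the share over all features. QCR8 fell by 0.34 ± 0.06 and the core subunit QCR2 by 0.28 ± 0.05.

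Of 21 factors that insert haem or copper or assemble the complexes, 12 fell and 4 rose with TMM (5 and 4 with nuclear TMM, 2 and 6 without TMM), with a median of -0.24. COX17, a copper chaperone, fell by 0.65 ± 0.11, and ATP11, a chaperone of the ATP synthase head, by 0.46 ± 0.05. ATP10, needed to assemble ATP6 into the enzyme, rose by 0.84 ± 0.07, though its feature overlaps CST9. For the subunits and assembly factors named here the adjusted p in edgeR was at most 0.000812.

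Factors acting on mitochondrial DNA and RNA were described in the same way. Of 7 genes of mitochondrial DNA maintenance, 5 fell and 1 rose under both TMM scalings (0 and 1 without TMM), with a median of -0.31. ABF2, which packs mitochondrial DNA, had 148 ± 3.44 CPM in the upf1 deletion and 183 ± 3.23 CPM in wild type (edgeR, log2 fold change -0.31 ± 0.05, adjusted p = 0.000319), and RIM1, a single-strand DNA binding protein, fell by 0.34 ± 0.05. HMI1, a DNA helicase whose feature overlaps COQ3, rose by 0.48 ± 0.07. Both subunits of the mitochondrial RNA polymerase fell, RPO41 by 0.19 ± 0.05 and MTF1 by 0.32 ± 0.09, but neither was called with nuclear TMM (adjusted p = 0.337 and 0.104), and RPO41 turned to 0.089 without TMM. Of 5 genes of RNA decay and processing 4 fell and 0 rose with TMM (1 and 0 with nuclear TMM, 0 and 1 without TMM), with a median of -0.23. DSS1, the exonuclease of the mitochondrial degradosome, fell by 0.38 ± 0.06 with an adjusted p of 0.000112 in edgeR, and PET127, which takes part in trimming RNA 5′ ends, by 0.23 ± 0.05 with 0.00221, a call lost with nuclear TMM and a change that turned to 0.045 without TMM.

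Genes for splicing and for translation of single mitochondrial mRNAs are given next. Of 7 splicing factors 2 rose and 2 fell with TMM (3 and 1 with nuclear TMM, 4 and 1 without TMM), with a median of -0.08. MNE1, which serves a COX1 intron, rose by 0.46 ± 0.05, and MSS116, a general RNA helicase, fell by 0.44 ± 0.05. Of 21 activators 7 rose and 6 fell with TMM (8 and 4 with nuclear TMM, 11 and 1 without TMM), with a median of -0.09, and both TMM shares are near those over all features. The 4 with the smallest p all rose. AEP1, required for OLI1 translation, had 96.9 ± 3.99 CPM in the upf1 deletion and 48.3 ± 2.55 CPM in wild type (edgeR, log2 fold change 1.01 ± 0.06, adjusted p = 5.4e-08). PET122, required for COX3 translation, had 27.0 ± 2.18 CPM in the upf1 deletion and 13.3 ± 0.795 CPM in wild type (edgeR, 1.02 ± 0.09, adjusted p = 1.6e-06). ATP22, which activates ATP6 translation, rose by 0.55 ± 0.05, and SOV1, needed for VAR1 expression, by 0.65 ± 0.07. The mRNAs these 4 act on, OLI1, COX3, ATP6 and VAR1, had log2 fold changes of -0.28, -0.42, -0.61 and -0.22. All 8 mitochondrial mRNAs had negative log2 fold changes, and ATP6 and VAR1 were not called (edgeR, adjusted p = 0.0859 and 0.446). The 4 activators were picked by p from a list in which 6 fell, and a link with these mRNAs was not tested. Of 7 general translation factors 3 fell and 0 rose under both TMM scalings (2 and 1 without TMM), with a median of -0.11. TUF1, the elongation factor Tu, had 228 ± 3.54 CPM in the upf1 deletion and 332 ± 12.1 CPM in wild type, and MEF1, the elongation factor G, fell by 0.32 ± 0.05 on the log2 scale.

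Regulators that tie nuclear genes to respiration were counted last. Of 6 HAP and haem regulators 1 rose and 3 fell with TMM (1 and 2 with nuclear TMM, 2 and 1 without TMM), with a median of -0.22. HAP5, a subunit of the activator of respiratory genes, rose by 0.90 ± 0.10 though its feature overlaps VTS1, and ROX1, the repressor of hypoxic genes, fell by 0.63 ± 0.10. Of 10 genes of the retrograde response, which signals loss of mitochondrial function to the nucleus, 2 rose and 1 fell with TMM (3 and 0 with nuclear TMM, 8 and 0 without TMM), with a median of -0.06. RTG1, a transcription factor of that response, had 87.7 ± 5.35 CPM in the upf1 deletion and 32.0 ± 0.997 CPM in wild type (edgeR, 1.45 ± 0.06, adjusted p = 4.8e-09). CIT2, the usual target of the response and named after its values were seen, had 114.7 ± 4.89 CPM in the upf1 deletion and 119 ± 7.66 CPM in wild type and was not called (edgeR, adjusted p = 0.432). For the other genes named from the last 8 lists, CIT2 aside, the adjusted p in edgeR was at most 0.0101. Without TMM the calls of ATP1, COX5B, COX6, QCR8, QCR2, ABF2, RIM1, RPO41, MTF1, DSS1, PET127 and MEF1 were lost, while ATP5, ATP15, COX17, ATP11, MSS116, TUF1 and ROX1 stayed lower and all genes named as rising stayed higher.

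None of the 117 genes of the 12 lists was called in edgeR in any of the 3 mutants of the second series. With the replicate number as a block, MEF2, the factor that recycles mitochondrial ribosomes, was called in the ebs1 deletion (adjusted p = 0.0299) and in the libraries labelled nmd4 ebs1 deletion (0.0254), with log2 fold changes of -0.36 and -0.33 in edgeR without the block. COX6 was called with the block in the ebs1 deletion (0.0332) and QCR8 in the libraries labelled nmd4 ebs1 deletion (0.0385). With the block, 5.63% of all features tested were called in the ebs1 deletion and 8.8% in the libraries labelled nmd4 ebs1 deletion. The calls named here were a smaller share of the 117 genes in both mutants, so they are no result about these lists.

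**Figure D5:**
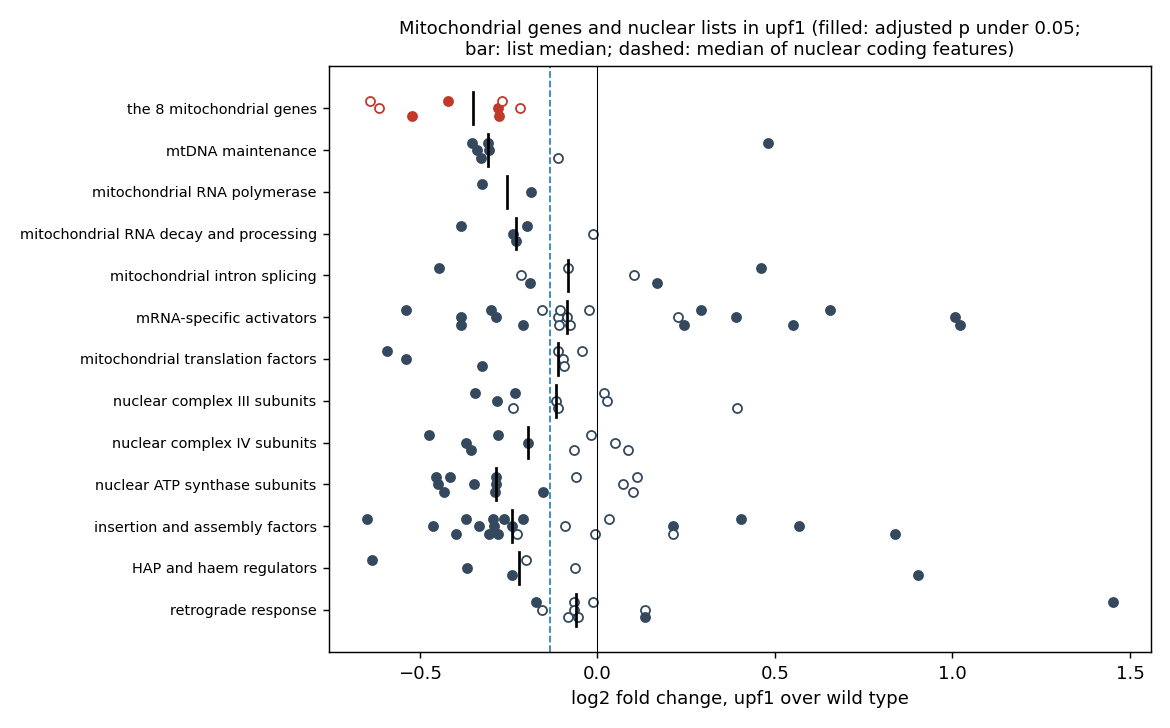
Log2 fold changes in the upf1 deletion over wild type (horizontal axis) for the 8 mitochondrially encoded genes and the genes of the 12 nuclear lists, one line per list, with called genes filled, a bar at each list's median and a dashed line at the median of nuclear coding features. The mitochondrial genes lie between -0.64 and -0.22, and the activators spread to 1.02.

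Of the 8 genes, 7 varied together from library to library and ATP8, with its few counts, did so least. Over the 18 libraries, with each series centred on its own mean, the Pearson correlation of a gene with the mean of the other 7 was 0.92 for COB, 0.89 for COX2, 0.87 for COX3, 0.82 for COX1, 0.77 for OLI1, 0.76 for ATP6, 0.70 for VAR1 and 0.27 for ATP8. Genotype, parallel number and depth differ among these libraries and all enter the correlations, so the values are a description. Of 5723 nuclear coding features, the 5 most like the mean of the 8 genes over the same libraries were CHS1, a chitin synthase (r = 0.76), YLR342W-A (0.75), TAN1, a tRNA acetyltransferase factor (0.73), ATP5 (0.73) and TPO3, a polyamine transporter (0.73).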

How the data were processed

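Total RNA was sequenced in 18 libraries, held in 2 tables that were analysed apart. The deposited values are raw counts per feature, made with featureCounts, stranded, without multi-mapping reads and with a read counted for every feature it overlaps, per the file headers; overlapping features therefore share counts. Alignment used STAR 2.4.2a and counting Subread 1.5.0-p3, on build R64, per the submitters' processing notes. No feature ended beyond its chromosome in the R64 sequence of RefSeq, from which all sequences come; 6052 of 12289 features matched its gene table, 5989 as nuclear coding.

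Counts were tested with edgeR 4.0.16 (R 4.3.3) by the quasi-likelihood test after filterByExpr and TMM scaling. All libraries of a series entered 1 fit, with 9700 features tested in the upf1 series, 10148 in the second and 10381 over both. P-values were adjusted by Benjamini-Hochberg over all features tested, and a feature was called at an adjusted p under 0.05. SE is the size of a log2 fold change over the square root of its F statistic. Alternatives were DESeq2 1.42.0, its size factors, other scalings, no filter, only the groups compared, the replicate number as a block, and each library left out in turn. The procedure was tested on simulated data. Libraries with the same number were handled in parallel, per the labels, so the numbers pair the samples; deviations from group means correlated at 0.04 to 0.23 within numbers in the upf1 series and -0.01 to 0.65 in the second, against -0.19 to 0.07 and -0.47 to 0.21 between numbers. Replicates differed by more than sampling noise in every pair. Intervals of counts cover counting error only. Of each nuclear list up to 4 genes with the smallest p were open to naming, and of nuclear coding features the 5 most correlated with the 8 genes. Genes and lists were chosen with earlier results of these data known.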

Additional observations from a re-analysis of the deposited data

How the results depend on the processing

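Scaling and wild-type replicate 3 both moved the upf1 results, and wild-type libraries differed widely in the second series; ATP8 and VAR1 had few counts. Library totals without TMM and the block joined to nuclear TMM were chosen after seeing the data for the member calls and fold changes. Of single-gene fold changes under the alternatives, 1099 kept direction and call, 42 lost a call, 14 gained one and 26 reversed, and of the levels and list counts of secondary results 1491 held and 97 moved; the causes were not tested. In the upf1 deletion 4 of the 8 genes were called lower, against 5 with the replicate block and 3 in DESeq2. The number was 1 with nuclear TMM, 0 without TMM, 2 with the replicate block and nuclear TMM, and 1 to 5 with a library left out. Features called lower numbered 3086, against 2039 with nuclear TMM and 931 without TMM. Without TMM the log2 fold changes of COX2, VAR1, RPO41 and PET127 were 0.0061, 0.058, 0.089 and 0.045. Features called in the nmd4 deletion numbered 10 with the replicate block, 14 with block and nuclear TMM, 16 in DESeq2, 1 with only the groups compared and 1 to 4 with a library left out. In the ebs1 deletion they numbered 24 with DESeq2 size factors, 80 with nuclear TMM, 571 with the block, 472 with block and nuclear TMM, 256 in DESeq2, 214 without TMM, 1 with only the groups compared and 4 to 53 with a library left out; members called numbered 2 with the block, 2 in DESeq2 and 1 with block and nuclear TMM. In the libraries labelled nmd4 ebs1 deletion features called numbered 893 with the block, 782 with block and nuclear TMM, 428 in DESeq2, 522 without TMM, 55 with only the groups compared and 114 to 233 with a library left out; members called numbered 1 with the block and 0 to 1 with a library left out. VAR1 there was 0.023 with nuclear TMM, 0.099 without TMM and -0.94 to 0.76 with a library left out (0.76 without wild-type replicate 2), and in the nmd4 deletion -0.78 to 0.34 (0.34 without wild-type replicate 2). For the ebs1 over the nmd4 deletion, the block gave COX2 -0.088, COB -0.10 and OLI1 -0.032, block and nuclear TMM gave -0.075, -0.090 and -0.017, OLI1 was -0.0056 in DESeq2 and -0.0057 with its size factors, ATP6 was 0.012 with nuclear TMM and 0.035 without TMM, and COX3 was 0.021 without TMM. For the upf1 effect minus that of the libraries labelled nmd4 ebs1 deletion, DESeq2 size factors gave COB -0.12, ATP6 -0.082 and OLI1 -0.018, and no filter gave COB -0.10 and ATP6 -0.061. Over nuclear coding counts the share of the 8 genes was 0.216% in the upf1 deletion, 0.225% in its wild type and 0.164% in the nmd4 deletion.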

Other observations

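The ribosomal RNAs of the mitochondrion were counted in libraries depleted of rRNA and are among the other mitochondrial features counted above. The small-subunit RNA, 15S_RRNA, had 4.64, 18.4 and 57.4 CPM in the upf1 deletion, against 20.0, 18.4 and 7.43 CPM in wild type. The large-subunit RNA, 21S_RRNA, had 61.9, 83.0 and 186 CPM in the upf1 deletion, against 114, 100.6 and 87.1 CPM in wild type. Both RNAs were highest in replicate 3 and lowest in replicate 1 among the mutant libraries, and the groups overlapped. In the second series 15S_RRNA had 37.4, 8.48 and 31.0 CPM in the nmd4 deletion, 23.8, 95.2 and 33.8 CPM in the ebs1 deletion and 40.7, 54.8 and 65.9 CPM in the libraries labelled nmd4 ebs1 deletion, against 32.3, 32.6 and 65.4 CPM in wild type. Replicate 2 of the ebs1 deletion, where the 8 mRNAs stood lowest, held the highest 15S_RRNA value of the 12 libraries. This was not so for 21S_RRNA, which had 170 CPM there, below wild-type replicates 2 and 3 at 180 and 203 CPM.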
